A study of Mus musculus with 6 samples.

Results

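The genes described here encode the proteins of the cytosolic ribosome, together with a few close relatives of these proteins. They were taken from the array's annotation as every gene whose symbol is Rpl or Rps followed by a number and at most a short suffix, or is one of Rplp0 to Rplp2, and which has a probe set that lists no other gene. The rule found 48 of the 18193 genes tested, of which 20 encode proteins of the large subunit, 2 encode proteins of the P-stalk on the large subunit, 20 encode proteins of the small subunit and 6 are paralogues of ribosomal proteins. A probe set is a group of short probes on the array that read 1 transcript, mostly near its 3′ end. Where a gene had several, the one with the highest mean over the 6 arrays stood for it. A further 28 symbols of the same pattern, Rplp1, Rpl5, Rpl3 and Rpl10 among them, appeared only on probe sets that also list other genes, in most cases pseudogenes, and were not counted as members.

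Expression was measured on Affymetrix Mouse430_2 arrays in sorted bone marrow cells of C57BL/6J mice, with 2 arrays for each of 3 groups. In the MN1 and MN1VP16 groups, marrow of donors treated with 5-fluorouracil at 150 mg/kg for 4 days was stimulated with cytokines for 48 hours and then transduced with a retrovirus, which was pSF91-MN1-IRES-GFP for the MN1 group and pSF91-MN1VP16-IRES-GFP for the MN1VP16 group. The cells were transplanted into lethally irradiated syngeneic recipients, and GFP+ marrow cells were sorted 4 weeks later. MN1 acts as a cofactor of transcription and, when overexpressed, gives mice myeloid leukaemia, and VP16 is a viral activation domain. The Gr1Mac group was marrow sorted for the granulocyte and monocyte surface proteins Gr1 and CD11b, and carries no vector in its labels. The labels do not say whether the Gr1Mac cells came from transplanted mice. Nor do they say that each array had its own mouse, so a p-value here reflects the spread among 6 arrays and that spread may be technical.

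Ribosomes are built in the nucleolus from ribosomal RNA and from proteins that are needed in near-equal numbers, so the genes of these proteins are usually expressed together and at very high levels in growing cells. Their mRNAs start with a run of pyrimidines, the 5′ terminal oligopyrimidine (TOP) tract, through which the growth-controlling kinase mTOR regulates their translation. In the bone marrow, loss of 1 copy of a ribosomal protein gene is known for failure of red cell production, in Diamond-Blackfan anaemia and, for RPS14, in myelodysplasia with a deletion on the long arm of human chromosome 5.

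Several facts of the arrays bear on the results. Over the ribosomal protein genes, the median expression was 13.71 and 13.81 log2 units on the MN1 arrays, 13.46 and 13.40 on the MN1VP16 arrays, and 12.95 and 12.10 on the Gr1Mac arrays. The Gr1Mac arrays differed from each other: array 2 was below array 1 for 43 of 48 members, by a median of 0.51 log2 units, whereas 53.6% of all genes were lower on array 2. In the MN1 and MN1VP16 groups, the median gap between the arrays, regardless of sign, was 0.078 and 0.087. The arrays also differed in Xist, the RNA of the inactive X chromosome, which read 10.44 and 5.83 in Gr1Mac, 5.53 and 5.84 in MN1VP16 and 12.36 and 12.59 in MN1. The level of Xist and the construct therefore cannot be told apart between MN1 and MN1VP16. Of 30 brighter control features on the arrays, 18 were higher on both MN1 arrays and MN1VP16 array 1 than on the other 3 arrays, and results are given below with this split as a block as well. The 6 control rows named for actin or Gapdh read 3.12 to 3.77, whereas the brightest ordinary probe set of Actb read 13.94 to 14.79. The names of the control rows may therefore not match their values, and what the split stands for is not known. The 1 probe set for mouse Mn1 read between 3.63 and 4.92 on every array. Whether it can read the vector's transcript is not stated, so it does not check the labels.

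Markers of other cell types moved with the groups as well. Stem and progenitor genes (6 of 6 measured) had mean levels of 10.88 to 11.06 in MN1, 9.05 to 9.98 in MN1VP16 and 5.81 to 6.02 in Gr1Mac, and 6 of 6 were called higher in MN1 than in Gr1Mac. Erythroid genes (8 of 10 measured) averaged 10.67 to 11.24 in MN1, 8.51 to 9.29 in MN1VP16 and 7.51 to 7.66 in Gr1Mac, with 6 of 8 higher in MN1. Neutrophil granule genes and Itgam, which encodes CD11b, (8 of 9 measured) ran the other way, at 11.94 to 12.84 in MN1, 13.09 to 13.44 in MN1VP16 and 14.15 to 14.22 in Gr1Mac, with 6 of 8 lower in MN1. B cell genes (6 of 7 measured) averaged 5.15 to 5.27 in MN1, 6.20 to 6.53 in MN1VP16 and 5.06 to 5.64 in Gr1Mac. T cell genes (5 of 7 measured) averaged 5.49 in MN1, 5.74 in MN1VP16 and 6.26 to 6.39 in Gr1Mac. In each of these lists 1 gene, Ms4a1 and Cd3d, was called lower in MN1 than in Gr1Mac. Vpreb1 was called higher in MN1VP16 than in Gr1Mac (2.82), and Cd79a higher in MN1VP16 than in MN1 (1.87). Pax5, Ebf1 and the T cell genes other than Cd3d were not called in any comparison. The 3 groups thus differed in the genes that mark the stage and lineage of marrow cells, and the part of these differences in the ribosomal protein results was not tested. In such bulk samples, fewer cells of a type and less RNA per cell cannot be told apart.

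The starts of these genes are shown because the TOP tract is the sequence that the mRNAs of ribosomal proteins are known to share. RefSeq's promoter windows (GRCm38.p6, 250 bases before to 50 after each listed start) were found for 42 of 48 members. Below are 50 bases around the listed start, 30 before and 20 after, for the 6 members that were among the 5 largest differences from Gr1Mac in MN1 or in MN1VP16, for Rps27 and Rpl39l, which were read by dim probe sets, and for the first window of Rpl3l, which has no tract. Capitals mark the first tract in reading order that begins within 30 bases of the start. A tract was taken as C followed by at least 5 C or T on the gene's strand. In Rpl39l a further run of this kind, cctttcc, lies nearer the start and is left in lower case.
Rpl12 (chr2:32961682-32961731, plus strand): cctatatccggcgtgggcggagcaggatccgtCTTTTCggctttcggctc
Rpl14 (chr9:120571487-120571536, plus strand): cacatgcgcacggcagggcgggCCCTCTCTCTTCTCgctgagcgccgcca
Rpl22l1 (chr3:28805478-28805527, plus strand): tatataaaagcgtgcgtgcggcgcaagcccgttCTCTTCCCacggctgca
Rps6 (chr4:86857348-86857397, minus strand): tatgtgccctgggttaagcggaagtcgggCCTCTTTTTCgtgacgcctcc
Rps25 (chr9:44407684-44407733, plus strand): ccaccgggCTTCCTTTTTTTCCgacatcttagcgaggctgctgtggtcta
Rps18 (chr17:33955646-33955695, minus strand): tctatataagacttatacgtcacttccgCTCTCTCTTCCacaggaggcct
Rps27 (chr3:90213629-90213678, minus strand): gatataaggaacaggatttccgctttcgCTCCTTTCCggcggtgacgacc
Rpl39l (chr16:10170198-10170247, plus strand): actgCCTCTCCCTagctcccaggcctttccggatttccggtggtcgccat
Rpl3l (chr17:24727796-24727845, plus strand): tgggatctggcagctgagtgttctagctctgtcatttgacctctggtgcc

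A tract that began within 30 bases of the listed start was present in 30 of 42 members (71.4%), against 44.6% of the 14368 tested genes with a window. Both shares also take in runs that end before the listed start, as in Rps25. In Rpl12, Rpl22l1, Rps6, Rps18 and Rps27 the tract began within 3 bases of the listed start. Over the whole window and on both strands, CCGGAAG, the core of the sites bound by ETS factors, was present in 20 of 42 members (47.6%) and in 15% of tested genes. AAGATGG, the core of the YY1 site, was present in 8 (19%, against 7.55%), the E-box CACGTG in 4 (9.52%, against 10.3%) and TATAAA in 6 (14.3%, against 11.5%). The reverse complement of CCGGAAG can overlap the tract. These are matches of letters, not measured binding.

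Ribosomal protein genes were higher in MN1 cells than in Gr1Mac cells. With limma's moderated test over all genes and Benjamini-Hochberg adjustment, 35 of 48 members were called higher at an adjusted p under 0.05, against 17.3% of all genes. Only Rps4l was called lower, against 12.0% of all genes. The median difference of the members was 1.10 on the log2 scale (2.15-fold), and that of all genes was -0.06. Both MN1 arrays lay above both Gr1Mac arrays for 45 of 48 members, against 30.9% of all genes. The differences called higher ran from 0.61 in Rps28 to 3.72 in Rpl12, with limma adjusted p between 0.00129 and 0.0478. A call of this kind was also made for 25.2% of the 357 genes with a mean of at least 12 log2 units, which hold 33 members, 27 of them called higher. The other 324 genes at that level had a median difference of -0.36, with 63 called higher and 130 lower.

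The count rested on both MN1 arrays: 15 members were called higher without MN1 array 1 and 11 without MN1 array 2, against 29 to 39 without any 1 of the other 4. With a block for the control feature split, 4 members were called higher while the median difference was 1.04. The share of all genes called under this block, or with 1 array left out, is not given beside these counts. The median difference itself was 1.13 without MN1 array 1 and 1.07 without MN1 array 2. It was 0.77 without Gr1Mac array 2 and 1.35 without Gr1Mac array 1. The array medians over all genes differed by 0.26 between MN1 and Gr1Mac and by 0.21 between MN1VP16 and Gr1Mac. After centring each array on that median, the members' median differences were 0.85 and 0.58, and 28 and 6 members were called higher.

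**Figure D1:**
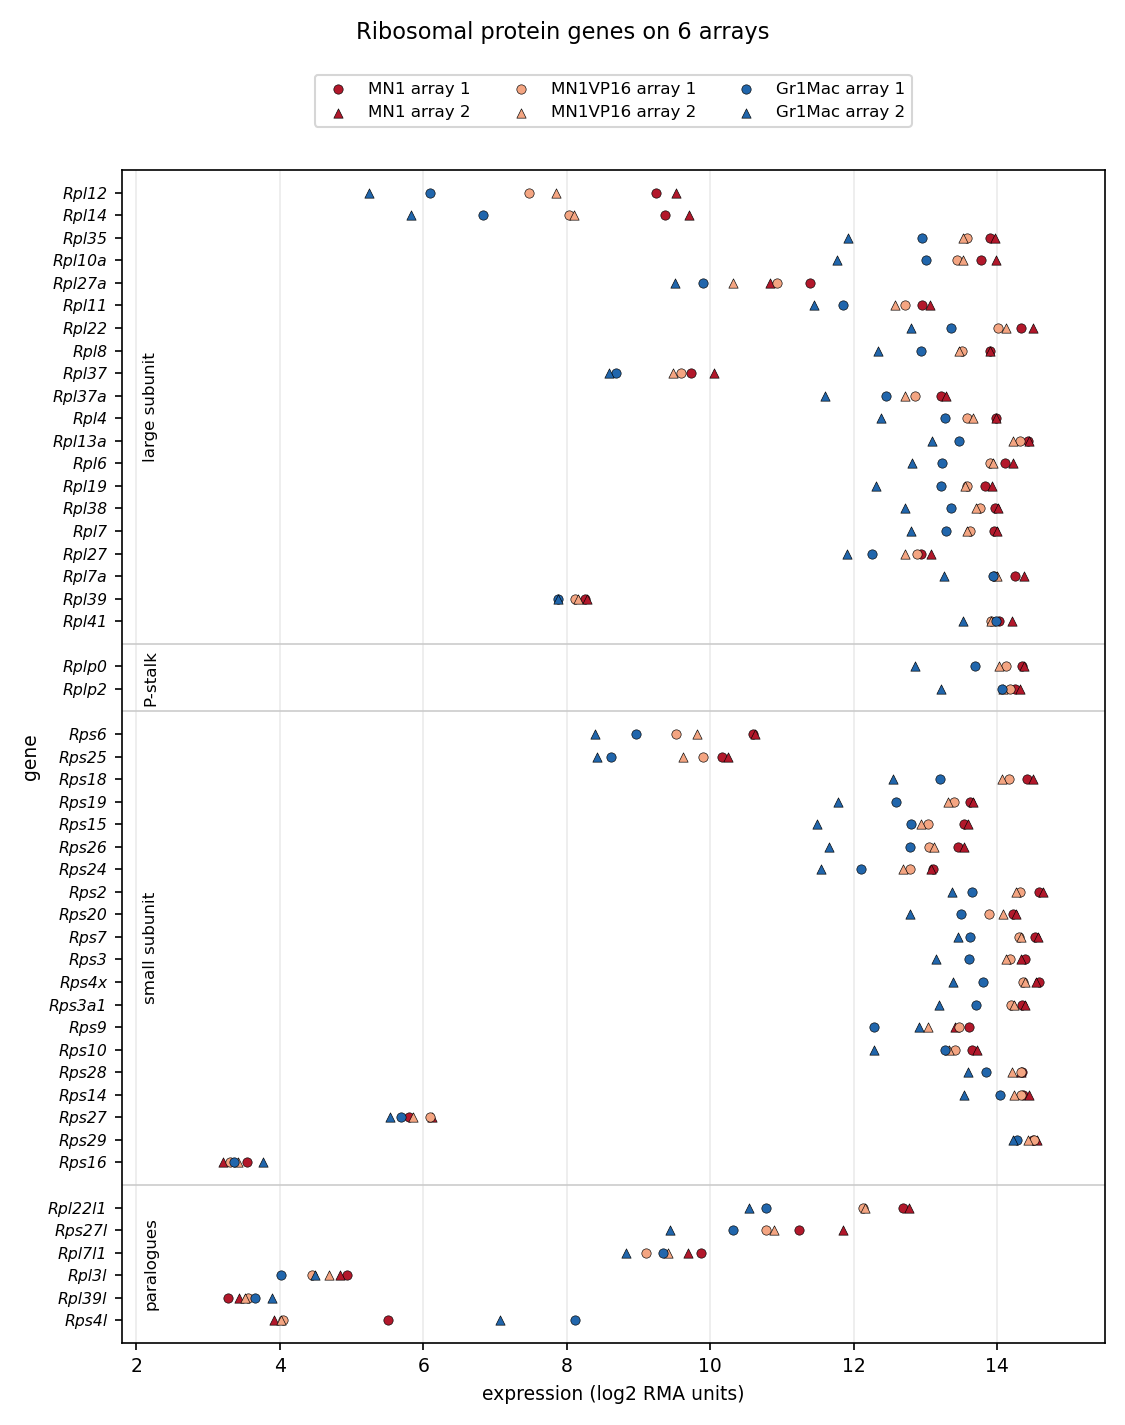
Expression of the 48 ribosomal protein genes on each of the 6 arrays, in log2 RMA units on the x axis, with genes grouped by role and ordered within a role by the difference of MN1 from Gr1Mac. Circles are array 1 and triangles array 2 of a group, and for 45 genes both MN1 arrays lie right of both Gr1Mac arrays.

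Of the 20 large subunit genes, 17 were called higher in MN1 than in Gr1Mac and 0 lower, with a median difference of 1.19. Rpl12, whose protein sits at the base of the P-stalk where elongation factors bind, read 9.25 and 9.53 in the MN1 group, 7.47 and 7.85 in the MN1VP16 group and 6.09 and 5.24 in the Gr1Mac group. The 3 groups were separate on every array, in that order. The difference of MN1 from Gr1Mac was 3.72 ± 0.31 (SE, 2 arrays a group), or 13.2-fold, with a limma adjusted p of 0.00141. Rpl14, a large subunit protein on the face exposed to solvent, read 9.37 and 9.71 on the MN1 arrays, 8.04 and 8.10 with MN1VP16, and 6.84 and 5.83 in Gr1Mac. It had the same order without overlap and a difference of 3.21 ± 0.34 (9.24-fold, limma adjusted p = 0.00217). Rpl12, with a mean of 7.57 over the 6 arrays, and Rpl14, with 7.98, were among the 7 members with a mean under 8. Signal over background is not known for such dim probe sets.

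The other large subunit genes differed less. Rpl11, which binds 5S ribosomal RNA with Rpl5 and restrains the p53 inhibitor Mdm2 when ribosome assembly fails, read 11.85 and 11.45 in Gr1Mac, 12.72 and 12.58 in MN1VP16 and 12.96 and 13.06 in MN1. Its 3 groups did not overlap, and MN1 was 1.36 ± 0.19 above Gr1Mac (2.56-fold, limma adjusted p = 0.00445). Rpl22, whose loss is known to block T cell development, read 14.33 and 14.50 in the MN1 group, 14.02 and 14.13 in the MN1VP16 group and 13.35 and 12.80 in the Gr1Mac group, again without overlap. Its difference was 1.34 ± 0.22. Rpl7 read 13.96 and 14.00 on the MN1 arrays, 13.62 and 13.58 with MN1VP16, and 13.29 and 12.80 in Gr1Mac, a difference of 0.94 ± 0.20. Of the remaining 15 genes of the large subunit, 12 were called, with differences from 0.93 in Rpl27 to 1.50 in Rpl35. Rpl7a, Rpl39 and Rpl41 were not called. Rpl39, a small protein that lines the exit tunnel for the growing peptide, read 7.87 and 7.87 in Gr1Mac, 8.12 and 8.16 in MN1VP16 and 8.26 and 8.28 in MN1. These values did not overlap between groups either, but the difference of 0.39 ± 0.14 had a limma adjusted p of 0.0939.

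The P-stalk recruits elongation factors to the ribosome, and Rplp0 anchors dimers of Rplp1 and Rplp2 to it. Rplp0 read 14.34 and 14.38 in the MN1 group, 14.12 and 14.02 in the MN1VP16 group and 13.70 and 12.86 in the Gr1Mac group. The groups did not overlap, although Gr1Mac array 2 lay well below array 1, and MN1 was 1.08 ± 0.28 above Gr1Mac (2.12-fold, limma adjusted p = 0.034). Rplp2 read 14.25 and 14.32 on the MN1 arrays, 14.18 and 14.08 with MN1VP16, and 14.07 and 13.22 in Gr1Mac. Gr1Mac array 1 was close to the MN1VP16 arrays, and the difference of MN1 from Gr1Mac, 0.64 ± 0.29, was not called.

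Of the 20 small subunit genes, 15 were called higher in MN1 and 0 lower, with a median difference of 1.00. Rps6, which S6 kinases phosphorylate downstream of mTOR, read 8.96 and 8.40 in Gr1Mac, 9.53 and 9.81 in MN1VP16 and 10.60 and 10.62 in MN1. Its 3 groups did not overlap, and MN1 was 1.93 ± 0.23 above Gr1Mac (3.82-fold, limma adjusted p = 0.00298). Rps25, which some viral and cellular mRNAs need to start translation at an internal site, read 10.17 and 10.24 in the MN1 group, 9.89 and 9.62 in the MN1VP16 group and 8.62 and 8.42 in the Gr1Mac group. Here the MN1VP16 arrays lay nearer to MN1 than to Gr1Mac, and MN1 was 1.69 ± 0.18 above Gr1Mac. Rps18, a protein of the head of the small subunit, read 14.41 and 14.51 on the MN1 arrays, 14.16 and 14.07 with MN1VP16, and 13.20 and 12.55 in Gr1Mac, a difference of 1.58 ± 0.24. Rps18 depends in part on the probe set. Further probe sets of Rps18 differed by 1.28, 1.92, 0.69 and 0.76 and were called higher. The 0.69 and 0.76 came from dim ones, with means of 4.17 and 3.96. The brightest Rps18 probe set with none of the marks _x_at, _s_at and _a_at read 5.33 to 5.87 on the 6 arrays, with a difference of -0.14. Of these marks, _a_at is for transcripts of the same gene, and the probe set that stood for Rps18 carries it. In the same way Rpl35, of the large subunit, differed by 0.06 on its only probe set without these marks. That probe set read 4.58 to 5.03. The _a_at probe set of Rpl35 differed by 1.65 and was called higher. With the mean of its probe sets Rps6 differed by 0.97 and was still called.

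Rps19, the gene most often mutated in Diamond-Blackfan anaemia, read 12.59 and 11.78 in Gr1Mac, 13.39 and 13.32 in MN1VP16 and 13.62 and 13.66 in MN1. Its groups did not overlap, and MN1 was 1.45 ± 0.27 above Gr1Mac (2.74-fold, limma adjusted p = 0.0113). Rps4x, which is X-linked, read 14.58 and 14.55 in the MN1 group, 14.36 and 14.39 in the MN1VP16 group and 13.80 and 13.39 in the Gr1Mac group, a difference of 0.97 ± 0.19 without overlap. With the mean of its probe sets the difference of Rps4x was 0.30 and was not called (limma adjusted p = 0.243), since its second probe set, at 6.03 to 6.84, had a difference of -0.36. Rps14 was higher in MN1 on every array, at 14.37 and 14.45 against 14.33 and 14.24 in MN1VP16 and 14.04 and 13.54 in Gr1Mac, but its difference of 0.61 ± 0.21 was not called (limma adjusted p = 0.0748).
Of the 12 genes measured here out of 21 listed for Diamond-Blackfan anaemia, 9 were called higher in MN1, and Rps10, Rps27 and Rps29 were not called.

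Rps29 had the highest mean of all members, with 14.50 and 14.55 on the MN1 arrays, 14.51 and 14.43 with MN1VP16, and 14.27 and 14.22 in Gr1Mac. The difference of MN1 from Gr1Mac was 0.28 ± 0.15 and was not called. At the other end, Rps16 had the lowest mean and read between 3.21 and 3.76 on all arrays, with a difference of -0.19 ± 0.21. The single-gene probe set of Rps27 read 5.54 to 6.12 and was not called either. Whether probe sets this dim read a transcript was not tested, since no detection calls were used here.

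MN1VP16 cells also had higher levels of some ribosomal protein genes than Gr1Mac cells. In this comparison 9 of 48 members were called higher, against 3.66% of all genes, and only Rps4l was called lower, against 2.11%. The median difference was 0.79 (1.73-fold) for the members and 0.00 for all genes, and 42 of 48 members had both MN1VP16 arrays above both Gr1Mac arrays, against 24.8% of all genes. Of the 33 members with a mean of at least 12, 4 were called higher, against 6.72% of all genes at that level. By role, the calls were 5 of 20 large subunit genes, 3 of 20 small subunit genes, 0 of 2 P-stalk genes and 1 of 6 paralogues.

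The 9 genes were Rpl12, Rpl14, Rpl11, Rpl13a, Rpl37, Rps25, Rps18, Rps7 and Rpl22l1. Rpl12 had the largest difference, 1.99 ± 0.31 (3.98-fold, limma adjusted p = 0.028). It was followed by Rpl14 with 1.73 ± 0.34, Rpl22l1 with 1.49 ± 0.16, Rps25 with 1.24 ± 0.18 and Rps18 with 1.24 ± 0.24. Rps6 (0.99 ± 0.23, limma adjusted p = 0.0645) and Rps19 (1.17 ± 0.27, limma adjusted p = 0.0655) were not called. The interval of the difference lay above 0 for 33 of 48 members before adjustment. The share of all genes with such an interval was not counted, so this number has no background beside it.
The count of members called higher moved with single arrays. It was 30 without Gr1Mac array 1, 0 without Gr1Mac array 2 or without MN1VP16 array 2, and 1 without any 1 of the other 3, while the median difference stayed between 0.51 and 1.10. With the control feature split as a block, 1 member was called and the median difference was 0.79. Here too the share of all genes is not given beside the counts.

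Between the constructs, most ribosomal protein genes read lower in MN1VP16 than in MN1, and 1 of the differences passed the test. The difference was below 0 for 46 of 48 members, against 8471 of all 18193 genes, with a median of -0.33 (all genes, 0.03). With the Xist level as a block the median turned to 0.20, an estimate that rests by construction on the gap between the Gr1Mac arrays. Both MN1 arrays were above both MN1VP16 arrays for 40 of 48, against 29.2% of all genes. Only Rpl12 passed the limma test as lower, against 2.70% of all genes, and 0 members were called higher, against 1.15%. Rpl12 fell by 1.73 ± 0.31 on the log2 scale (limma adjusted p = 0.0464), and it was not called without any 1 of the 4 MN1 and MN1VP16 arrays. Nor was it called after quantile normalisation (limma adjusted p = 0.0545), where Rps6 was called in its place (-0.91, limma adjusted p = 0.0466), or with the replicate number (limma adjusted p = 0.0687), the Xist level (limma adjusted p = 0.38) or the control feature split (limma adjusted p = 0.098) as a block. Without Gr1Mac array 1, and likewise without Gr1Mac array 2, the count was 2.

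Rpl14 came next, with -1.48 ± 0.34 (limma adjusted p = 0.0718), then Rps6 with -0.94 ± 0.23 (limma adjusted p = 0.0838). Rps27l had a difference of -0.71 ± 0.34 and Rps4l one of -0.68 ± 0.57, and neither was called. Before adjustment, 5 intervals lay wholly below 0, those of Rpl12, Rpl14, Rps6, Rpl22l1 and Rps25, and 0 lay above. The share of all genes was not counted here either. The 95% interval reached a median of 0.54 to either side of the difference, so a change of the members' median size could not be resolved gene by gene. For Rps19 the interval ran from -0.95 to 0.39, and for Rplp0 from -0.98 to 0.41. The only differences above 0 were those of Rpl39l (0.19 ± 0.17) and Rps27 (0.02 ± 0.19).

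In the order of the 3 groups, 37 of 48 members had MN1 above MN1VP16 above Gr1Mac on every array, against 14.1% of all genes. The MN1VP16 mean lay between the other 2 means for 45 members, including all 35 called higher in MN1. Over those 35, MN1VP16 reached a median of 72.6% of the log2 distance from Gr1Mac to MN1, from 51.3% to 89.9%. The distances share the Gr1Mac arrays, and the 35 were chosen by the same difference that forms the distance. The share of all genes with the MN1VP16 mean between the other means was not counted. Rpl12 and Rps6 lay near the low end of this range and Rpl13a near the high end: Rpl13a was 1.16 ± 0.18 higher in MN1 and 0.99 ± 0.18 higher in MN1VP16 than in Gr1Mac.

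**Figure D2:**
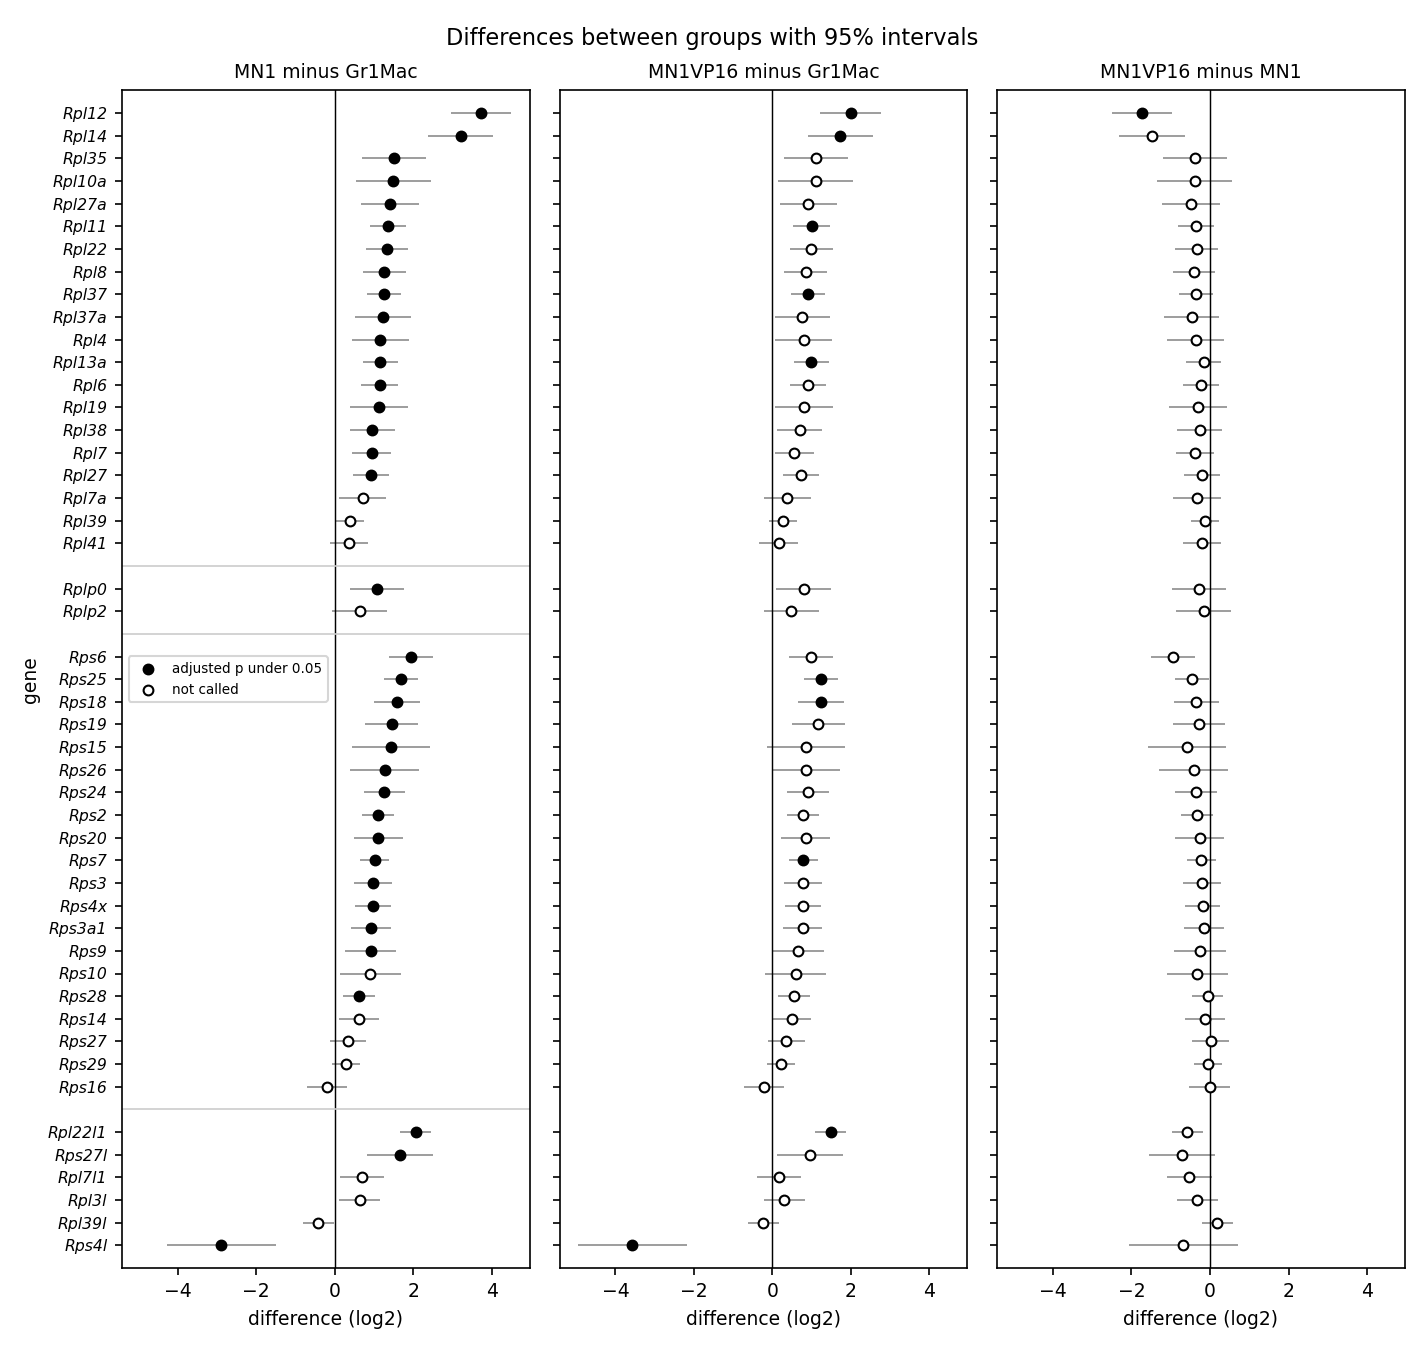
Differences between groups on the log2 scale (x axis) for the 48 genes, with 95% confidence intervals from limma, in 3 panels for the 3 comparisons. Filled points passed the adjusted p threshold: 36 in MN1 minus Gr1Mac (35 higher, 1 lower), 10 in MN1VP16 minus Gr1Mac and 1, Rpl12, in MN1VP16 minus MN1.

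Several ribosomal proteins have a second gene that encodes a near relative, often used in few tissues. Among the 6 such paralogues measured, 2 were called higher in MN1 than in Gr1Mac, 1 was called lower and 3 were not called. Rpl22l1, whose protein can replace Rpl22 and whose transcript Rpl22 is known to repress, read 10.78 and 10.54 in Gr1Mac, 12.13 and 12.16 in MN1VP16 and 12.69 and 12.77 in MN1. The groups were far apart, with a difference of 2.07 ± 0.16 in MN1 (4.19-fold, limma adjusted p = 0.00129) and 1.49 ± 0.16 in MN1VP16 (2.80-fold, limma adjusted p = 0.0143) against Gr1Mac. Rpl22 itself was higher in MN1 by 1.34 ± 0.22, so both genes of the pair were called in the same direction.

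Rps27l, a p53 target gene, read 11.24 and 11.85 in the MN1 group, 10.78 and 10.89 in the MN1VP16 group and 10.32 and 9.44 in the Gr1Mac group. The groups did not overlap, and MN1 was 1.67 ± 0.34 above Gr1Mac (3.17-fold, limma adjusted p = 0.0151). Its partner Rps27 was not called. Rps4l, a relative of Rps4x, was the exception in direction, with 5.50 and 3.91 on the MN1 arrays, 4.04 and 4.02 with MN1VP16, and 8.12 and 7.07 in Gr1Mac. Both Gr1Mac arrays were above all others. MN1 fell by 2.89 ± 0.57 on the log2 scale (limma adjusted p = 0.0127) and MN1VP16 fell by 3.57 ± 0.57 (limma adjusted p = 0.0282), both against Gr1Mac. The MN1 arrays of Rps4l lay 1.59 apart, the widest gap within a group of any member. The call in MN1 was lost without Gr1Mac array 1, and that in MN1VP16 without either MN1VP16 array or either Gr1Mac array.

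None of the other 3 paralogues was called in MN1 against Gr1Mac. Rpl7l1 read 9.34 and 8.83 in Gr1Mac, 9.11 and 9.41 in MN1VP16 and 9.88 and 9.69 in MN1, so that MN1VP16 and Gr1Mac overlapped. Its difference between MN1 and Gr1Mac was 0.70 ± 0.23 and was not called (limma adjusted p = 0.0708), whereas that of Rpl7 was. Rpl3l, which replaces Rpl3 in striated muscle, read 4.01 to 4.93, and Rpl39l, used in male germ cells, read 3.28 to 3.89. Neither was called in any comparison. The Rpl39l values ran in the reverse order, lowest in MN1 and highest in Gr1Mac, with a difference of -0.42 ± 0.17.

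**Figure D3:**
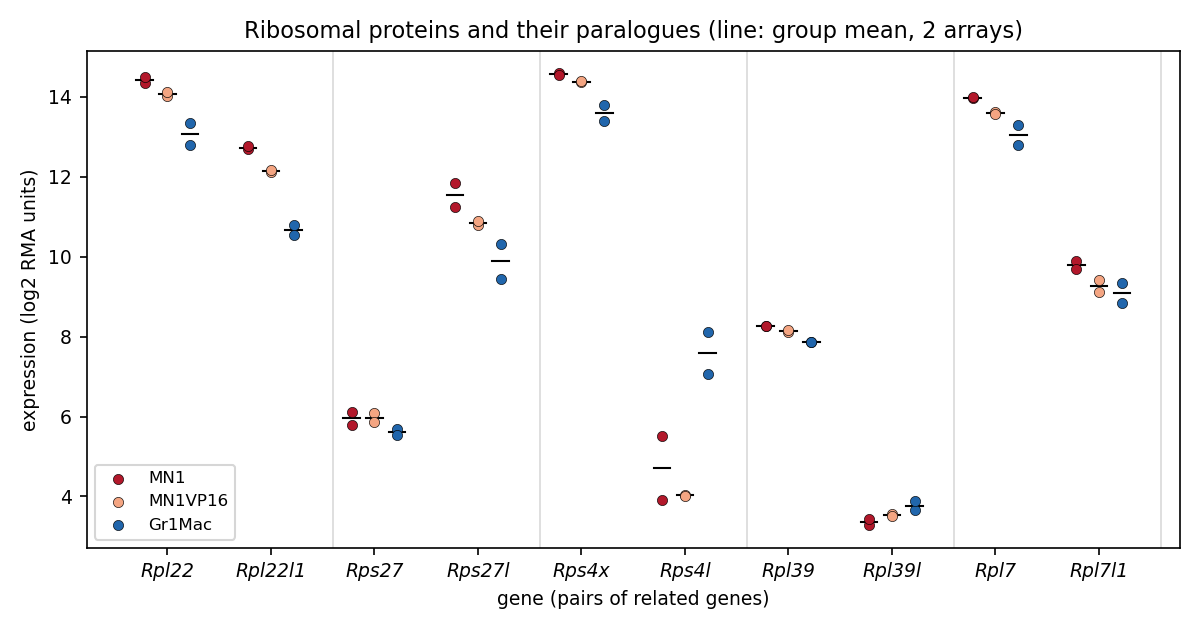
Expression in log2 RMA units (y axis) of 5 ribosomal protein genes and their paralogues, with a point for each array and a line at the mean of the 2 arrays of a group. Rps4l is highest in Gr1Mac, at 8.12 and 7.07, whereas its partner Rps4x is lowest there.

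Probe sets of ribosomal protein genes can also read transcripts of close copies, since these genes have many processed pseudogenes. Of the 48 probe sets that stood for a gene, 15 carried Affymetrix's mark for probes shared with other transcripts (_x_at), 1 the mark _s_at and 17 the mark _a_at for transcripts of the same gene. When every ordinary probe set was tested, 72 of the 103 that list a single member were called higher in MN1 than in Gr1Mac and 1 was called lower, against 12.8% and 10.9% of all 45037. Among the 110 probe sets that list a ribosomal protein gene beside other genes, 76 were called higher and 0 lower, with a median difference of 1.02. In MN1VP16 against Gr1Mac, 20 of 103 and 15 of 110 were called higher (all, 2.61%), with 1 of 103 lower (all, 2.29%). In MN1VP16 against MN1, 3 of 103 and 1 of 110 were called lower (all, 1.91%) and 0 of either kind higher (all, 0.731%).

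Within genes, the probe sets mostly pointed the same way. Of 23 members with several, 8 had every probe set called higher in MN1, 14 had some, and 1, Rps29, had none. In 0 genes were probe sets called in opposite directions. The size of the difference varied with the level of the probe set. The median difference of MN1 from Gr1Mac was 0.20 for the 16 with a mean under 6, 1.12 for the 7 from 6 to 8, 1.67 for the 17 from 8 to 11, 1.36 for the 23 from 11 to 13 and 1.00 for the 40 at 13 or more. Over the 80 with a mean of at least 8, the level and the difference had a Pearson r of -0.38 and a Spearman rho of -0.46, as a description across probe sets that share the arrays and in part the genes. Array signals flatten near the top of the scale, where the highest value on any array was between 15.11 and 15.18. The part of this in the smaller differences of the brightest genes was not tested.

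**Figure D4:**
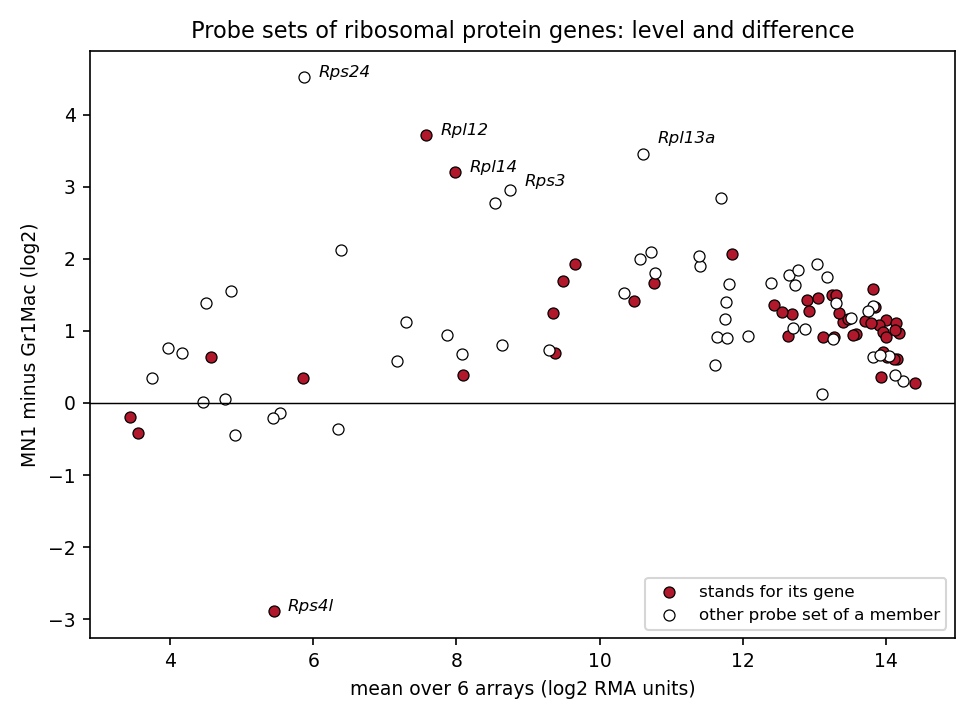
Difference of MN1 from Gr1Mac on the log2 scale (y axis) against the mean over the 6 arrays (x axis) for the 103 probe sets that list a single ribosomal protein gene. Filled points stood for their gene, and the median difference is 1.67 for the probe sets from 8 to 11 and 1.00 for those at 13 or more.

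Other genes of ribosome production and translation were described from lists of known function. Of 15 measured genes for elongation factors and other products of TOP mRNAs, 13 were called higher in MN1 than in Gr1Mac and 0 lower, with a median difference of 1.52, beside 1.10 for the ribosomal protein genes. Examples chosen after the values were seen are Npm1, a nucleolar chaperone, and Eef2, the factor that moves the ribosome along the mRNA. Npm1 read 13.29 and 13.38 in the MN1 group, 12.25 and 12.46 in the MN1VP16 group and 10.45 and 9.98 in the Gr1Mac group, a difference of 3.12 between MN1 and Gr1Mac. Eef2 differed by 2.04 in the same comparison. Tpt1 (0.09) and Eif3h (0.83) were not called. In MN1VP16 against Gr1Mac, 6 of 15 were called higher, with a median of 0.97, and in MN1VP16 against MN1, 0 were called and the median was -0.46.

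Of 47 measured genes for RNA polymerase I, which transcribes ribosomal RNA, and for factors that assemble ribosomes, 39 were called higher in MN1 than in Gr1Mac and 0 lower, with a median difference of 2.08. The count was 24 higher and 0 lower in MN1VP16 against Gr1Mac, with a median of 1.27. Between the constructs all 47 differences were below 0, with a median of -0.84, and 8 were called lower: Dkc1, Gar1, Gnl3, Gtpbp4, Nmd3, Nob1, Riok2 and Utp20. Nucleolin (Ncl), the abundant nucleolar protein, was chosen after its values were seen. It read 13.04 and 12.95 on the MN1 arrays, 11.96 and 12.06 with MN1VP16, and 10.66 and 10.12 in Gr1Mac. Polr1a, the largest subunit of the polymerase, had a difference of -0.31 between MN1 and Gr1Mac and was not called. Of 2 ribosomal proteins whose symbols follow no such pattern, Rpsa was called higher in MN1 (1.23) and Fau was not (0.14).

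**Figure D5:**
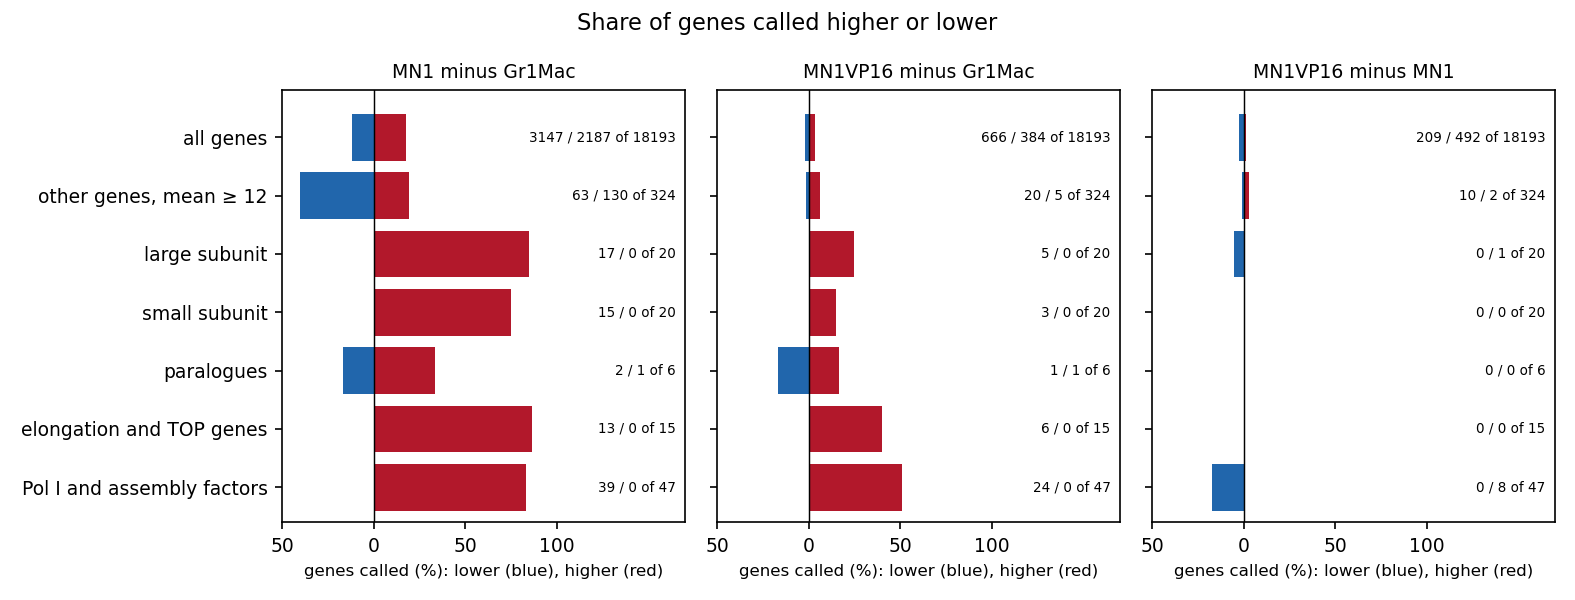
Share of genes called higher (red, to the right) or lower (blue, to the left) at an adjusted p under 0.05, in percent on the x axis, for all genes, for other genes with a mean of at least 12, for 3 roles of the members and for 2 related lists. The numbers at the right of each bar are the counts higher and lower of those measured, 17 and 0 of 20 for the large subunit in MN1 minus Gr1Mac.

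The genes outside the members whose pattern was most like the members' mean over the 6 arrays were Pdcd11, Naca, Mrpl12, Tusc3 and Zfp623, with Pearson r between 0.9983 and 0.9994. With 6 arrays in 3 groups and 18193 genes, such values describe the order of the arrays and carry no test. Naca, the alpha subunit of the complex that binds new peptides at the ribosome, read 12.25 and 11.59 in Gr1Mac, 12.74 and 12.76 in MN1VP16 and 13.24 and 13.30 in MN1. Pdcd11, a factor for ribosomal RNA processing, read 6.65 and 5.09, 7.76 and 7.76, and 8.74 and 8.82 in the same groups, in that order. Both had Gr1Mac array 2 below array 1, as most ribosomal protein genes did.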

How the data were processed

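Per the labels' protocols, TRIZOL extraction preceded labelling by a 3′ IVT kit. The deposited table holds log2 expression values, which the authors made with RMA, per the submitters' processing notes, in a version not given in the sources used here. The method brings all arrays to one distribution, so a change in total RNA per cell is not visible. The 64 control features were left out, and of 45037 probe sets the 34945 with 1 gene in GEO's platform annotation gave 18193 genes, each through the brightest of its probe sets. All 48 members were matched in RefSeq by gene number, with 0 symbols changed. A linear model with the group as its only term was fitted to all 6 arrays with limma 3.58.1 in R 4.3.3 (lmFit, eBayes), with 3 residual and 3.03 prior degrees of freedom. P-values were Benjamini-Hochberg adjusted over 18193 genes for each of 3 comparisons and called under 0.05, after a test on simulated data. Named members were those with the 5 largest differences in each direction per comparison, called ones first, a fixed set (P-stalk genes, Rpl11, Rps6, Rps14, Rps19, Rps4x and paralogue pairs), and those with the highest mean, the lowest mean and the widest gap within a group. The members, lists and tests were chosen with earlier results of these data known. Precision is limited by the number of arrays.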

Additional observations from a re-analysis of the deposited data

How the results depend on the processing

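Beside the main setting, 18 others were run, and of 804 values of called members under them 802 kept their direction and 602 their call. Several settings leave a gene's difference unchanged by construction, such as the trended, robust prior, the replicate block and dropping dim genes. Direction could not turn there, and the members were chosen for being called, so the 802 is no measure of robustness. The cause of a change was not tested except where the setting itself shows it. Most counts below are given without the share of all genes called in the same setting. In MN1 minus Gr1Mac, the 35 members called higher became 15 with only probe sets without the marks _x_at, _s_at and _a_at. Such unmarked probe sets exist for 25 members, and the setting also drops _a_at, the mark for transcripts of the same gene. The number called higher became 4 with the control feature split as a block, and 11 to 39 with 1 array left out. The 1 called lower became 0 without the 40% of genes with the lowest mean and over genes with a mean of at least 12, both of which leave Rps4l out, became 0 with the control feature split, became 2 after centring and with a trended, robust prior, and was 0 to 1 with 1 array left out. In MN1VP16 minus Gr1Mac, the 9 called higher became 15 with the mean of a gene's probe sets, 15 after quantile normalisation, 1 with only the 4 arrays compared, 30 with the Xist level as a block, 1 with the control feature split, and 0 to 30 with 1 array left out. The 1 called lower became 0 without the dimmest 40%, with the Xist block, with the control feature split and over genes of at least 12, and was 0 to 1 with 1 array left out. In MN1VP16 minus MN1, the 1 called lower became 4 with unmarked probe sets, 2 with only the 4 arrays compared, 0 with the Xist block, 0 with the control feature split, 0 over genes of at least 12, which leave Rpl12 out, and 0 to 2 with 1 array left out. The split of the control features and the analyses of bright genes, of members without dim ones and of all probe sets were chosen after seeing the data.

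Replicate numbers did not pair the arrays, since deviations of same-numbered arrays correlated at -0.046, -0.049 and 0.08. With the replicate block, 33 members were called higher and 1 lower in MN1 minus Gr1Mac, 3 higher and 1 lower in MN1VP16 minus Gr1Mac, and 0 in MN1VP16 minus MN1.

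With the Xist level as a block, the estimate of MN1VP16 minus MN1 rests by construction on the gap between the Gr1Mac arrays. The members' median then turned to 0.20, and the differences were -0.050 in Rpl39l, 0.18 in Rps27l, 0.37 in Rps4l, 0.55 in Rplp0, 0.70 in Rplp2, 0.037 in Rpl11, 0.38 in Rps14, 0.53 in Rps19, 0.22 in Rps4x, 0.11 in Rpl7 and 0.21 in Rpl22. With unmarked probe sets Rps18, called higher in both comparisons with Gr1Mac, turned to -0.14 in MN1 and -0.041 in MN1VP16. The other signs turned in differences that were not called. Rpl7l1 in MN1VP16 minus Gr1Mac was at -0.034 after centring and between -0.084 (without Gr1Mac array 2) and 0.43 with 1 array left out. Rpl39 in MN1VP16 minus MN1 was at 0.021 after quantile normalisation. Rps16 in MN1 minus Gr1Mac was at 0.0082 with the Xist block and between -0.39 and 0.0082 with 1 array left out. In MN1VP16 minus MN1, Rps27 ranged from -0.15 (without MN1 array 1) to 0.18 and was at -0.10 without MN1VP16 array 1, and Rps4l ranged from -1.47 to 0.12, the latter without MN1 array 1.

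Signal over background is not known for dim probe sets, and 7 members had a mean under 8, Rpl12 and Rpl14 among them. With 2 arrays a group, the median standard error of a difference was 0.22, which limits what the comparison of the constructs can resolve.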

Other observations

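Some probe sets that did not stand for their gene differed more than the one that did. They were chosen after their values were seen. Rps24, a small subunit protein whose pre-mRNA is known to be alternatively spliced, has 6 probe sets. A dim one, with a mean of 5.87, read 3.71 and 3.63 in Gr1Mac, 5.79 and 5.75 in MN1VP16 and 8.17 and 8.20 in MN1. Its difference between MN1 and Gr1Mac was 4.52 ± 0.14 (SE, 2 arrays a group), against 1.26 in the probe set that stood for the gene. The remaining probe sets of Rps24 differed by 1.41, 1.81, 1.52 and -0.20. The dim one was called in all 3 comparisons of the test over all probe sets, with MN1VP16 2.41 below MN1. A further probe set of Rps3 read 10.16 and 10.22 in the MN1 group, 9.30 and 8.37 in the MN1VP16 group and 7.73 and 6.74 in the Gr1Mac group. For Rpl13a, a probe set with a mean of 10.6 read 12.17 and 12.46, 10.65 and 10.67, and 9.38 and 8.34 in the same groups, a difference of 3.45 between MN1 and Gr1Mac, beside 1.16 in the brightest. Rpl41, not called through its brightest probe set (0.36), differed by 1.34 between MN1 and Gr1Mac in another, which read 14.35 and 14.51 on the MN1 arrays, 14.02 and 13.85 with MN1VP16, and 13.57 and 12.60 in Gr1Mac.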
